A study of Homo sapiens with 6 samples.

Results

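The chaperonin TRiC is a cytosolic protein folding machine built from a pair of stacked rings. Each ring holds 8 different subunits, encoded by TCP1 (the alpha subunit), CCT2 (beta), CCT3 (gamma), CCT4 (delta), CCT5 (epsilon), CCT6A (zeta), CCT7 (eta) and CCT8 (theta). The rings close around newly made actin, tubulin and other proteins that do not fold well alone. The mRNAs of the 8 subunits were examined for binding by eIF4B, an RNA-binding initiation factor that stimulates the helicase eIF4A during translation initiation. Members were taken by gene symbol, 8 of the 22125 gene identifiers with at least 1 cross-link in either cell line.

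Binding was measured by iCLIP, in which UV light cross-links a protein to RNA in the cell and reverse transcription stops at the cross-linked nucleotide. The cells were DoHH2, a diffuse large B-cell lymphoma line, and GM01953, a non-cancerous B-cell line, with 4 and 2 replicates in the labels, some of them merged by the study from libraries with few reads. The labels name no treatment, time or genetic change for either line, and each group is 1 cell line. The deposited values were 1 pooled table per line, so no value below has an SD and no difference between the lines was tested. A count is a cDNA assigned to a cross-link position. The intervals given are 95% intervals for counting error only: Wilson for shares, exact Poisson for counts and exact binomial for ratios of counts.

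DoHH2 held 2033156 counts at 1179243 positions and GM01953 held 167197 counts at 78474 positions. Markers of B cells were present in both lines, with counts on 6 of 7 in DoHH2 (0 to 1023 each, CD22 at 0) and on 7 of 7 in GM01953. The 4 T-cell markers and the 4 myeloid markers were at 0 in both, and the 4 epithelial markers had 3 counts in DoHH2 and 1 in GM01953 in all. The level of each mRNA was not analysed here, so counts below combine how much of an mRNA a line holds with how often eIF4B was cross-linked to it. Cell number and RNA per cell cannot be told apart in such material either.

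The positions with the most counts show where eIF4B was cross-linked on the individual mRNAs. The windows below hold 21 nt of the mRNA, 5′ to 3′ on the transcribed strand, with the cross-linked base in capitals, from the GENCODE release 44 transcripts of GRCh38 and written with T for U. They are a position with the highest count of each mRNA in DoHH2 (except CCT8), all 3 such positions for TCP1, and a position with the highest count in GM01953 among those cross-linked in both lines for TCP1, CCT2, CCT3, CCT4, CCT5, CCT6A and CCT8.
TCP1, 3′ UTR just past the stop codon, chr6:159779022-159779042, minus strand: tgatgttcctTttatttataa
TCP1, 5′ UTR, chr6:159789493-159789513, minus strand: tgcccgcggtGtaagcagaat
TCP1, 5′ UTR, chr6:159789512-159789532, minus strand: gaggggccgcGatactggttg
TCP1, 5′ UTR, chr6:159789483-159789503, minus strand: gtaagcagaaTtcgacgtgta
CCT2, coding sequence, chr12:69586290-69586310, plus strand: tgttaacatcTttaaggcagg
CCT2, coding sequence, chr12:69587561-69587581, plus strand: tgccactattCtaaaaaacat
CCT3, coding sequence, chr1:156320975-156320995, minus strand: gatgctgaacAtcatcaacag
CCT3, 5′ UTR, chr1:156338231-156338251, minus strand: ttctctctctCcagaaggttc
CCT4, 5′ UTR, chr2:61888598-61888618, minus strand: ttctggaaggTtcgtgaaggc
CCT5, coding sequence, chr5:10250356-10250376, plus strand: accctcgcctTcgatgaatat
CCT5, coding sequence, chr5:10255963-10255983, plus strand: ggtgccttgtTagaagaagcg
CCT6A, coding sequence, chr7:56054417-56054437, plus strand: caggatgataTaactggtgat
CCT6A, 5′ UTR, chr7:56051820-56051840, plus strand: tcgtttccttTtcctccgctg
CCT7, 5′ UTR, chr2:73234321-73234341, plus strand: gggcggcccgGtctcggagaa
CCT8, coding sequence, chr21:29073571-29073591, minus strand: catggcgcttCacgttcccaa

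eIF4B was cross-linked to all 8 mRNAs in both lines. The genes together held 4352 counts at 2471 positions in DoHH2 and 195 counts at 124 positions in GM01953. These made up 0.214% (0.208 to 0.220) of all counts in DoHH2 and 0.117% (0.101 to 0.134) in GM01953. Counts fell mostly on the exons of the MANE Select transcript, the reference transcript of each gene, with 92.5% of the members' counts in DoHH2 and 94.4% in GM01953. Over all coding genes with more than 20 counts, exons held 80.9% of the counts in DoHH2 and 89.6% in GM01953. Outside those exons, DoHH2 had 190 counts in introns, 137 on exons of other transcripts and 1 in a snoRNA within CCT6A.

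CCT3 had the most counts in both lines, 915 in DoHH2 and 43 in GM01953. The other members lay between 373 (CCT2) and 548 (CCT7) in DoHH2, and between 4 (CCT2) and 40 (CCT5) in GM01953. TCP1 had 527 counts in DoHH2 and 28 in GM01953. CCT4 had 528 and 32, CCT6A 519 and 16, and CCT8 411 and 18, in the same order of lines. CCT5 had 531 counts in DoHH2 and CCT7 had 14 in GM01953.

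Per kb of mRNA, DoHH2 had 429 counts on CCT3, 283 on CCT7, 207 on CCT8, 205 on TCP1, 202 on CCT4, 187 on CCT6A, 169 on CCT2 and 152 on CCT5. CCT5 was the lowest per kb, and its mRNA of 3293 nt is the longest of the 8. All 8 densities lay between the 94.5th and the 98.1st percentile of the 10635 coding genes with an exonic count. In GM01953 the range was 2.09 (CCT2) to 19.2 (CCT3) counts per kb, from the 58.8th to the 95.5th percentile of 8406 genes.

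Sites, which are positions with an FDR below 0.05 in the deposited tables, numbered 1370 on the members in DoHH2 and 48 in GM01953. They held 72.4% of the members' counts in DoHH2, against 43.7% over the whole table. In GM01953 the shares were 54.4% on the members and 55.6% over the whole table. The highest position held between 2.09% (TCP1) and 6.33% (CCT8) of a gene's counts in DoHH2, and 1729 of the 2471 positions had a single count. In GM01953 it held 11.6% (CCT3) to 18.8% (CCT6A), and 50% for CCT2 (2 of 4 counts).

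Relative to the total of each table, the subunit genes together had 1.84 times (1.59 to 2.13) more counts in DoHH2 than in GM01953. The difference was uneven among the subunits. CCT2 stood highest, with 183 CPM (counts per 1000000 counts of the table) in DoHH2 (165 to 203) and 23.9 in GM01953 (6.52 to 61.3), a ratio of 7.67 (2.97 to 28.3) that rests on 4 counts in GM01953. CCT7 had a ratio of 3.22 (1.90 to 5.93) and CCT6A of 2.67 (1.63 to 4.70). CCT8 (1.88, 1.17 to 3.20), CCT3 (1.75, 1.29 to 2.43) and TCP1 (1.55, 1.06 to 2.35) followed. For CCT4 (1.36, 0.949 to 2.00) and CCT5 (1.09, 0.791 to 1.55) the interval included 1.

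**Figure D1:**
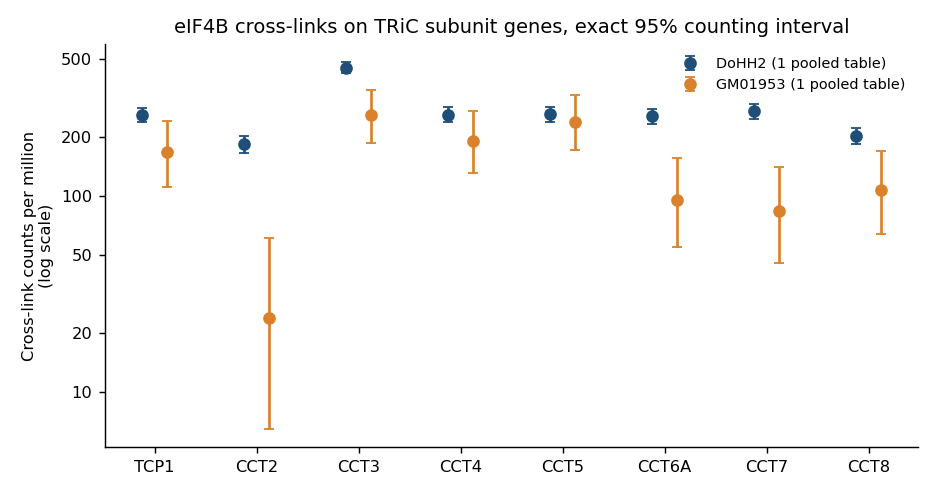
Cross-link CPM (log axis) for the 8 subunit genes, with blue points for DoHH2 and orange points for GM01953. Bars are exact 95% Poisson intervals for counting error and do not include replicate spread. CCT3 is highest in both lines, and the GM01953 point of CCT2 (23.9) lies far below its DoHH2 point (183).

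Most genes also had a higher share in DoHH2. Of the 10338 genes with at least 20 counts in both tables together, 60.7% had a ratio above 1, and their median ratio was 1.29, against 1.81 for the 8 members. A ratio of at least 2 was found for 3 of the 8 members (CCT2, CCT6A and CCT7), and for 32.9% of all genes. A ratio of 0.5 or less was found for 0 of 8, and for 14.7% of all genes. The members' count of genes higher in DoHH2 is thus near the background. When every position was counted once, CCT2 alone kept a ratio of at least 2 (1 of 8, against 32.6% of 9757 genes) and CCT5 came to 0.865. With sites alone, 7 of the 8 had a ratio of at least 2, against 29.4% of 5460 genes, from the 48 sites that GM01953 had on the members.

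The ends of exons were nearly empty of cross-links, which bears on every density along these spliced mRNAs. In DoHH2 the members had 122 counts in the last 40 nt of the exons that precede a junction (4000 nt, 0.0305 counts per nt) and 1429 in the next 40 nt upstream (3762 nt, 0.380 counts per nt). This is a 12.5-fold difference, and it was 8.35-fold in the other coding genes with more than 20 counts. In GM01953 the members had 3 and 62 counts in these parts. The last 40 nt make up between 12.1% (CCT5) and 31.3% (CCT2) of a member's mRNA. Their part in the results below was measured by leaving those bases out, and their cause was not tested.

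Cross-links were densest at the 5′ ends of the subunit mRNAs. Each mRNA was divided into 5 regions: the 5′ UTR, the start codon window (50 nt to each side of the codon), the coding sequence between the windows, the stop codon window and the rest of the 3′ UTR. The 5′ UTRs are short, from 58 nt (CCT8) to 149 nt (CCT4), so that the 5′ UTR region left outside the start window was only 8 to 99 nt. The 5′ UTR and the start window were therefore also joined. In DoHH2 they held 1105 of the 4024 exonic counts, 27.5% (26.1 to 28.9), on 6.24% of the mRNA length. Over all coding genes with more than 20 counts the share was 16.2%, on 5.72% of the length. In GM01953 the members' share was 83 of 184 counts, 45.1% (38.1 to 52.3), against 23.1% over coding genes. These sums over coding genes include the histone mRNAs, whose weight in them was not measured.

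The density in this 5′ part was 973 counts per kb in DoHH2, 5.23 times (4.86 to 5.62) that of the coding sequence between the windows (186 counts per kb). The median of 7571 coding genes was 2.07. TCP1 had the largest excess, 1022 counts per kb against 125 in its coding sequence, or 8.17-fold (6.65 to 10.0). CCT5 had 7.98-fold (6.49 to 9.80) and CCT8 6.59-fold (5.20 to 8.32). CCT4 had 6.23-fold (5.11 to 7.58), CCT7 5.73-fold (4.70 to 6.97) and CCT2 4.38-fold (3.25 to 5.82). CCT6A (3.52, 2.75 to 4.47) and CCT3 (2.85, 2.38 to 3.41) were lowest. All 8 lay above the median of coding genes, with CCT3 at the 63.8th percentile and TCP1 the highest. CCT3 thus had the most counts of the family and the lowest 5′ excess with all bases counted, though its interval overlapped that of CCT6A. Its coding sequence, at 353 counts per kb, was the densest of the 8.

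Leaving out the last 40 nt of the exons gave 4.50-fold (4.18 to 4.84) for the members together, and 1.89 for the median coding gene. The members then ranged from 2.40 (CCT6A) to 7.07 (TCP1), with CCT3 at 2.75, so that CCT6A and not CCT3 was lowest. In GM01953 the members together had a 10.0-fold excess (7.34 to 13.7) at the 5′ part, from 83 counts there and 89 in the coding sequence. The median was 2.52 for 949 coding genes with more than 20 counts, a minimum that only 4 of the 8 members passed. Leaving out the last 40 nt of exons gave 8.24-fold (6.02 to 11.3) for the members together and 2.36 for the median. By member, with all bases counted, the 5′ part in GM01953 held 21 counts for CCT3, 16 for TCP1, 15 for CCT4 and 14 for CCT5. It held 9 for CCT8, 6 for CCT6A, 2 for CCT7 and 0 for CCT2.

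The first 200 nt of the mRNA were also counted, without any use of the codons. They held 32.6% of the members' exonic counts in DoHH2, on 8.79% of the length, and 49.5% in GM01953. Over coding genes with more than 20 counts, histone mRNAs included, they held 19.4% and 23.7%, on 4.78% and 5.04% of the length. Relative to these lengths, the members' share was not larger than that of coding genes in DoHH2, and was larger in GM01953. Per member in DoHH2 the share ran from 19.7% (CCT3) to 40.2% (CCT7).

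The mRNAs differed in where within the 5′ part the cross-links lay. On TCP1 and CCT4, which have the longest 5′ UTRs, counts were spread over the whole 5′ UTR, with 1.60 counts per nt at 26 to 50 nt upstream of the start codon of TCP1 and 1.64 at 76 to 100 nt upstream in CCT4. On CCT7 they lay near the 5′ end, with 2.28 counts per nt at 26 to 50 nt upstream of the codon and 0.16 in the 25 nt just before it. Those 25 nt lie in the sparse last 40 nt of its first exon, whose junction lies 5 nt past the first base of the codon. CCT3 had 2.04 counts per nt at 51 to 75 nt upstream of the codon.

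CCT5 had its cross-links close to the start codon and past it. It had 1.80 counts per nt in the 25 nt before the codon, 2.92 counts per nt in the bases at 25 to 49 nt past the codon, and 0 counts in the 11 nt of 5′ UTR outside the window. CCT8 had 1.92 counts per nt in the 25 nt before the codon and 1.44 at 50 to 74 nt past it. CCT6A had a density of 1.36 before the codon and a higher one, 1.76, at 125 to 149 nt past it. CCT2 had 0 counts in the 25 nt before the codon, which are the end of its first exon (the junction lies 2 nt past the first base of the codon). The exon ends touch the start windows of TCP1 (27 nt), CCT2 (53 nt), CCT3 (40 nt), CCT7 (40 nt) and CCT8 (31 nt), and not those of CCT4, CCT5 and CCT6A.

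**Figure D2:**
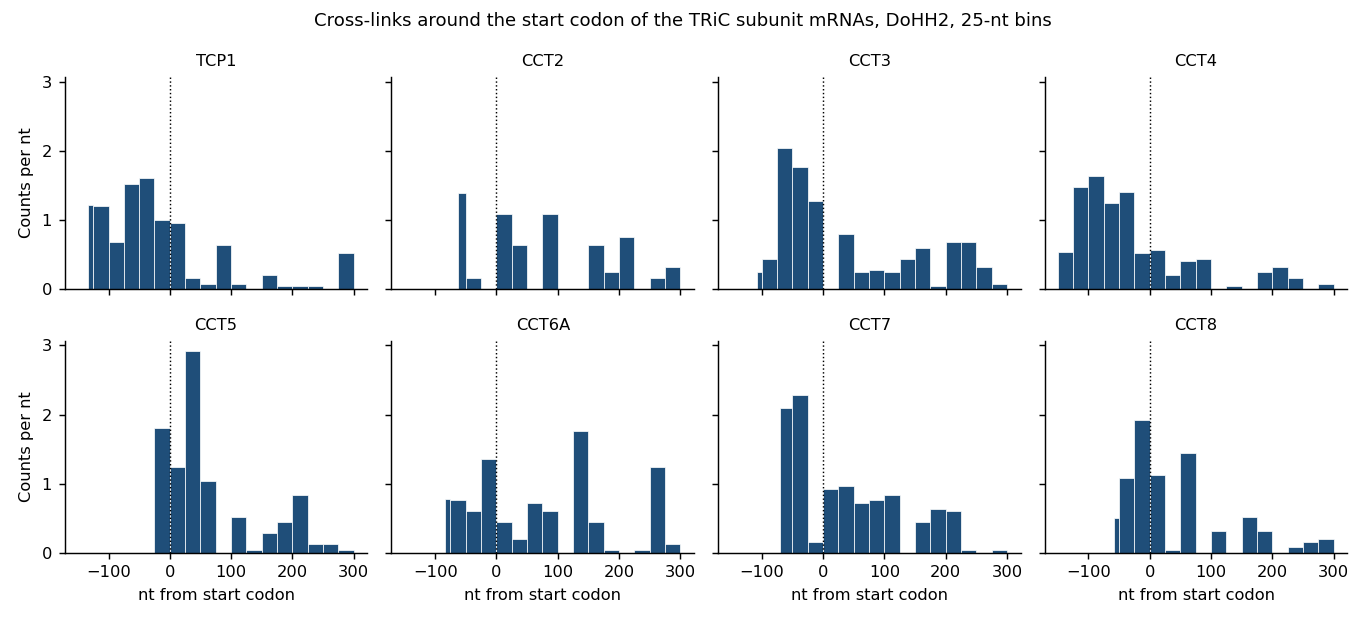
Counts per nt in DoHH2 (y axis, linear, shared) against distance from the first base of the start codon (x axis, 25-nt bins) in each of the 8 subunit mRNAs. Dotted lines mark the codon, and narrow bars are bins cut short by the 5′ end of the mRNA. The bars are high upstream of the codon in TCP1, CCT3, CCT4 and CCT7, just before it in CCT8 (1.92 counts per nt) and past it in CCT5 (2.92).

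A region was called dominant when it held at least 50% of the summed densities of the 5 regions, in mRNAs with more than 20 counts. In DoHH2 the 5′ UTR was dominant in 3 of the 8 (CCT2, 59.6%, CCT4, 56.3%, and CCT7, 55.5%), against 11.7% of 7597 coding genes. The start window was dominant in 2 of 8 (CCT5, 78.3%, and CCT8, 63.7%), against 18.2%. The other 3 had no dominant region, as did 4611 of the 7597 coding genes. In these 3 the 5′ UTR and the start window together were at 70.7% for TCP1, 81.2% for CCT6A and 63.4% for CCT3. The 5′ UTR regions of CCT2 and CCT7 are only 13 and 21 nt, holding 18 and 44 counts. That of CCT8 (4 counts on 8 nt) was under the 10 nt needed for a density. The 63.7% for CCT8 leaves it out, and the call of a dominant start window there depends on this. In GM01953, 4 members passed 20 counts. The 5′ UTR was dominant in 2 (CCT3 and CCT4; background 23.7%) and the start window in 2 (TCP1 and CCT5; background 23.4%).

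At the other end of the coding sequence, TCP1 stood apart from the other subunit mRNAs. Its stop codon window held 68 counts at 36 positions in DoHH2, 22 of them sites, with 24 counts before the stop codon and 44 from its first base on. The highest position, with 11 counts, lay 15 nt past the first base of the stop codon, in the T-rich window shown above, and the 2 bases just upstream of it had 3 and 7 counts. The window had 673 counts per kb, 5.38 times (4.02 to 7.13) the coding sequence of TCP1. This was above 96.8% of coding genes. Without the last 40 nt of exons the fold was 4.07 (3.04 to 5.39), above 96.2% of coding genes.

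The other members had 1 (CCT6A), 4 (CCT4), 6 (CCT2), 7 (CCT3), 8 (CCT7), 11 (CCT8) and 20 (CCT5) counts in the stop window. Their folds over the coding sequence ran from 0.0517 (CCT6A, 0.00130 to 0.290) to 1.17 (CCT5, 0.704 to 1.85), and the median coding gene had 0.879. No interval of these 7 overlapped that of TCP1. The last 40 nt of an exon take up 38 nt of the stop window of CCT4 and 22 nt of that of CCT2, and none in the other 6. Together the members had 3.11% of their exonic counts in stop windows, against 17.7% summed over coding genes. That sum includes the histone mRNAs, for which the paper reports eIF4B binding near the stop codon. Of the 2033156 counts in DoHH2, 1703637 lay outside histone genes. The median density share of the window was 2.35% in the members and 12.9% in coding genes. Against their own coding sequence, however, the members' stop windows together had 0.832-fold the density (0.689 to 0.996), close to the median of 0.879 over coding genes, and TCP1 held 68 of the 125 counts. In GM01953 the stop windows held 1 count in all, on CCT4, and TCP1 had 0 counts there of 27 exonic counts. The interval of the TCP1 fold in GM01953 (0 to 7.86) includes the 5.38 of DoHH2, so these 0 counts do not separate the lines.

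**Figure D3:**
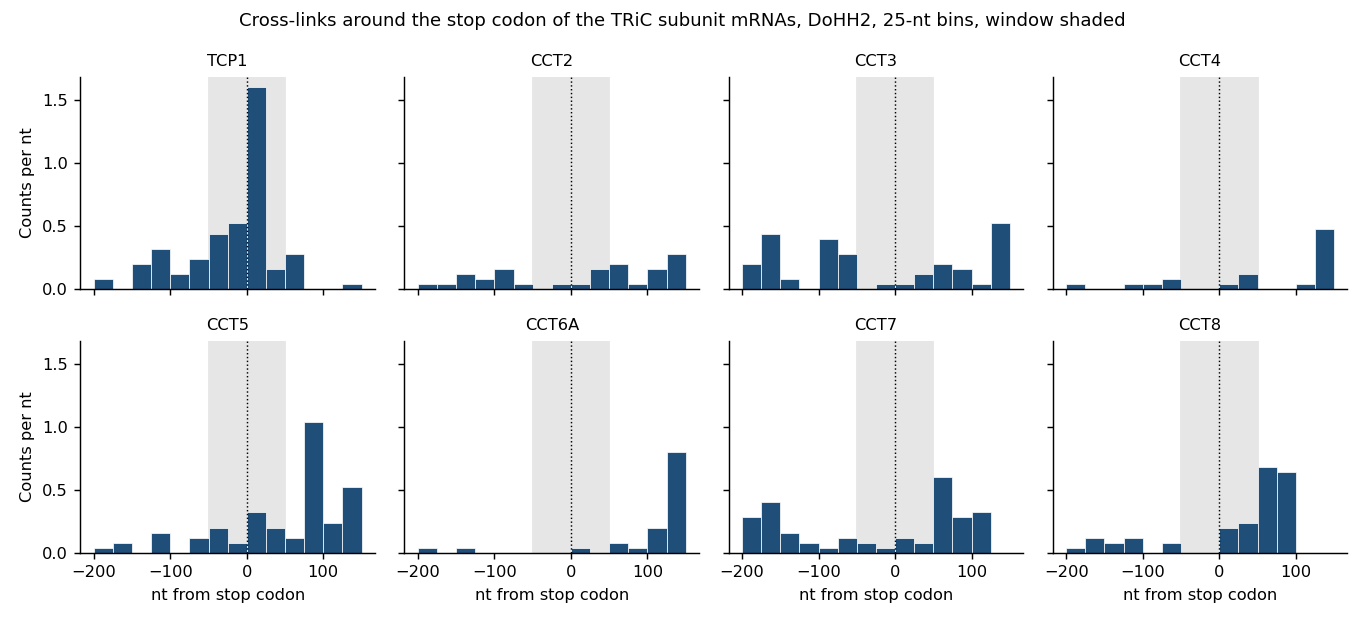
Counts per nt in DoHH2 (y axis, linear, shared) against distance from the first base of the stop codon (x axis, 25-nt bins) in each of the 8 subunit mRNAs. Shading marks the window of 50 nt to each side and the dotted line the codon. TCP1 reaches 1.60 counts per nt in the 25 nt from the stop codon on, where the others have at most 0.32 (CCT5).

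Further into the 3′ UTR the members split. CCT2 (2.18-fold over the coding sequence, 1.59 to 2.95), CCT8 (2.17, 1.46 to 3.14) and CCT3 (2.17, 1.79 to 2.62) had denser 3′ UTRs, and CCT7 had a fold of 1.44 whose interval included 1 (0.955 to 2.09). CCT4 (0.660), CCT6A (0.646), TCP1 (0.465) and CCT5 (0.281, 0.214 to 0.366) had sparser ones. The median of coding genes was 0.814. The mRNAs with a fold above 1 have the 4 shortest 3′ UTRs of the family, 144 to 245 nt, and the others measure 547 to 1606 nt. Without the last 40 nt of exons in the coding sequence, the fold was 1.53 for CCT2, 1.49 for CCT8 (0.998 to 2.15), 1.59 for CCT3 and 1.11 for CCT7. The median of coding genes was then 0.636. In the 3′ UTR of CCT3 the 3 highest positions had 14, 11 and 11 counts and lay between 1809 and 1830 nt past the start codon. The 3′ end of TCP1 overlaps ACAT2 on the opposite strand, and 19 counts in DoHH2 and 7 in GM01953 on that strand lay within the TCP1 exons.

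Within the coding sequence, single positions stood out on CCT3 and CCT8. The highest of all, with 31 counts in DoHH2 and 0 in GM01953, lay 462 nt past the start codon of CCT3 at an A. The next was at 65 nt past the start codon of CCT8, with 26 counts in DoHH2 and 1 in GM01953. Its window spans an exon junction and is not printed. CCT6A had 16 counts at 259 nt past its start codon and CCT7 16 counts at 48 nt before its own. CCT5 had 15 at 25 nt past the codon, CCT4 13 at 101 nt before it and CCT2 10 at 33 and at 210 nt past it.

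Most GM01953 positions on these genes were also cross-linked in DoHH2. Of the 124 positions in GM01953, 83 (66.9%) were the same nucleotide as a position in DoHH2, and 115 (92.7%) lay within 3 nt of a position there. The same 83 are 3.36% of the 2471 positions in DoHH2, whose table is far deeper. On coding genes other than the members 32.8% of GM01953 positions and 2.06% of DoHH2 positions were shared. By member the share of GM01953 positions ran from 33.3% (CCT2, 1 of 3) to 83.3% (CCT5, 20 of 24). The share within 3 nt was not computed for other genes, so the 92.7% has no background. The members are covered more densely in DoHH2 than most genes, and what that adds to either overlap was not tested. Of the 83 shared positions, 49 were in coding sequence, 25 in 5′ UTRs, 4 in 3′ UTRs and 5 in introns or other exons.

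The 13 shared positions with at least 3 counts in GM01953 lay in 5′ UTRs, coding sequence and a 3′ UTR. Highest were 3 with 5 counts in GM01953. On CCT3 they lay at 57 nt before the start codon, in a run of alternating T and C with 7 counts in DoHH2, and at 13 nt before it (1 in DoHH2). On CCT5 it lay at 349 nt past the codon (3 in DoHH2). Those with 4 counts were at 25 nt before the start codon of TCP1 (6 in DoHH2) and at 49 nt past that of CCT5 (1 in DoHH2). Of the 8 with 3 counts, those with the most in DoHH2 were at 101 nt before the start codon of CCT4 (13), at 149 nt past that of CCT3 (11), at 19 nt before that of CCT6A (9) and at 9 nt past that of CCT8 (7). The others lay on TCP1 at 687 nt past the start codon, on CCT3 at 78 nt before it and on CCT5 at 62 nt past it and in the 3′ UTR, 188 nt past the first base of the stop codon. CCT4 also had 5 counts in GM01953 at 57 nt before its start codon, where DoHH2 had 0.

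Cross-links fell more on U and less on A than the mRNAs' composition. In DoHH2 U took 41.2% of the members' exonic counts and made up 26.6% of their mRNA bases, and A took 11.6% and made up 28.8%. C took 21.5% (20.3% of bases) and G 25.7% (24.3% of bases). Coding genes with more than 20 counts had 42.4% at U and 11.0% at A. Their mRNA bases, weighted by the counts of each gene, were 24.4% U and 26.1% A. In GM01953 the members had 41.8% at U and 5.98% at A. The share at U in DoHH2 ran from 34.2% (TCP1) to 50.4% (CCT6A), with CCT8 at 50.3%. Within the coding sequence 36.6%, 29.3% and 34.1% of 2616 counts lay at codon positions 1, 2 and 3 in DoHH2, and 36.9%, 28.9% and 34.2% in coding genes.

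Reads can be split between a gene and pseudogenes of like sequence. In DoHH2, 8 pseudogenes named after a member had 51 counts in all, from 1 to 18 each, with 18 on CCT6P1, 14 on CCT6P3 and 11 on CCT6P2. None held a site, and GM01953 had 0 counts on them. Their identity to the members was not measured.

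A list of 18 genes of related folding pathways was followed. They comprise prefoldin, which hands actin and tubulin to TRiC, the phosducin-like proteins, which bind it, the tubulin cofactors, which take over folded tubulin, the separate mitochondrial chaperonin HSPD1 with its co-chaperonin HSPE1, and CCT6B, a paralogue of CCT6A. Of these, 15 had at least 20 counts in both tables together. A ratio of at least 2 in favour of DoHH2 was found for 7 of 15 (32.9% of all genes), and a ratio of 0.5 or less for 0 of 15 (14.7%). Their median ratio was 1.52. The highest per kb in DoHH2 were PFDN2, a prefoldin subunit, with 485 counts per kb, and HSPE1, the mitochondrial co-chaperonin, with 460. The lowest were PDCL2, with 0 counts, and CCT6B, with 5 counts or 0.541 per kb.

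On 14 of these genes with more than 20 counts in DoHH2, the 5′ UTR was dominant in 1 (11.7% of coding genes) and the start window in 3 (18.2%). The stop window was dominant in 1, PFDN4, a prefoldin subunit, with 59.3% (331 of 7597 coding genes). No region was dominant in 9 (4611 of 7597 coding genes). The median density share of the 5′ UTR and start window was 43.7%. For the 8 subunit mRNAs the shares were 63.4% to 86.7%, and the median of coding genes was 53.5%. HSPD1, the mitochondrial chaperonin itself, had 85.0%.

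The coding genes whose 5 density shares lay nearest to the mean of the 8 members in DoHH2 were DDIT4 (distance 0.0300), TBC1D5 (0.0422), NFYB (0.0443), HM13 (0.0448) and ID2 (0.0459). The distance is Euclidean over the 5 shares, as fractions, among 5232 coding genes with at least 50 exonic counts. The members themselves lay 0.110 (CCT6A) to 0.535 (CCT5) from their own mean, so the mean is not the profile of any single subunit. The 5 genes were picked as the nearest, so their smaller distances say nothing about the members. CCT8 (0.445) entered with a 5′ UTR share of 0, because that region is under 10 nt.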

How the data were processed

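iCLIP was carried out on DoHH2 and GM01953, with libraries of few reads merged by the authors into 4 and 2 replicates. Per the study's methods, the authors removed PCR duplicates with BBMap, demultiplexed with Je, trimmed reads, mapped them to GRCh38 with HISAT2, pooled replicates and used iCount. Versions and the annotation release are not given in the sources used here. The deposited counts are whole, non-normalized cDNA counts per position, and the deposited FDR (a q-value) comes from iCount. The position column was found to count from 0 and was raised by 1.

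Counts were summed over unique positions per gene symbol and placed on MANE Select transcripts of GENCODE release 44 (GRCh38), which holds 98.8% (DoHH2) and 99.2% (GM01953) of the gene identifiers. All 8 members matched. For TBCE the identifier did not, so its density is not given. No density was computed for a region under 10 nt. Folds used genes with at least 20 counts in both tables together. Intervals were computed with scipy 1.17.1, numpy 2.4.6 and pandas 2.3.3 in Python 3.11.15. Named genes are the 8 members, the highest and lowest 2 of the list of 18 by counts per kb, pseudogenes and the 5 nearest genes. ACAT2, HSPD1 and PFDN4 were picked out with their values in view. The members and lists were chosen with earlier results of these data known. Region assignment was tested on simulated data. Alternatives were FDR sites only, positions counted once, other totals and thresholds, other transcripts and windows, and, added after seeing the data, leaving out exon ends.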

Additional observations from a re-analysis of the deposited data

How the results depend on the processing

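No paired analysis was possible because each table pools the replicates of a cell line, and for the same reason no replicate could be left out. The ratio of the members' total (1.84) stayed above 1 in every alternative tried, and was 3.11 with FDR sites only and 1.33 with each position counted once. The median over all genes (1.29) moved too, to 0.942 and 1.38 in these, and with the highest position of each gene left out the members had 2.09 and the median was 2.14. The number of members higher in DoHH2 by at least 2-fold (3) became 7 with FDR sites only (29.4% of all genes), 1 with positions counted once (32.6%) and 6 at a fold of 1.5 (43.8%). CCT5 turned to 0.865 with positions counted once. The cause of these shifts was not tested.

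In DoHH2 the 5′ UTR was dominant in 1 member on the longest coding transcript, in 0 at a threshold of 70% and in 1 without the last 40 nt of exons. The start window was dominant in 1 on the longest transcript, in 1 with 25 nt to each side and in 1 at 70%. In GM01953 it was dominant in 1 at 70%, and with FDR sites only the 5′ UTR and the start window were dominant in 1 each, since 2 members fell under the minimum. The shares of coding genes under these changed rules are not given here. These counts therefore have no background, and the changes cannot be read as particular to the members.

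The share of counts in the 5′ UTR and start window in DoHH2 (27.5%) was 34.1% with FDR sites only, 20.5% with positions counted once, 31.9% on the longest transcript and 24.2% with 25 nt to each side. In GM01953 it was 54.0% with FDR sites only. The stop window share in DoHH2 (3.11%) was 2.36% with FDR sites only, 3.89% with positions counted once and 1.94% with 25 nt, and in GM01953 it was 0% with FDR sites only. Shared positions rose to 13.1% of DoHH2 and 92.7% of GM01953 positions within 3 nt, a setting not computed for other genes. Of the other changes tried on these results, 41 stayed within the counting interval or within 1.5 times. In GM01953, with 4 to 43 counts per gene, only large differences could be seen at this depth.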
